A study of Saccharomyces cerevisiae with 4 samples.

Results

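The genes described here build the yeast cell wall or carry the signal that guards it. They are 38 genes of Saccharomyces cerevisiae, grouped by function: 13 of the cell wall integrity pathway, 10 of glucan synthesis and remodelling, 5 of chitin synthesis, and 10 of mannoproteins and other surface proteins. A row of the deposited tables was taken when its gene text or open reading frame was one of the 38. This found 52 of the 7519 probe sets: 1 gene probe set for each of the 38, and 14 chromosome segments named for FKS1 or GSC2. All 38 gene probe sets were called Present, that is above background, on all 4 arrays, so every member entered the test over 5151 genes.

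In strain BY4741, 2 arrays held RNA of cells exposed for 15 min to quinine, an antimalarial alkaloid, at 1 g/L, and 2 held RNA of control cells without it. All 4 were of the Affymetrix type Yeast Genome S98. BY4741 is a haploid laboratory strain of mating type a known to carry deletions in several marker genes, in both groups alike. Of 4 such genes listed, HIS3, LEU2, MET17 and URA3, only HIS3 entered the gene test. The probe set of HIS3 was called Present on all 4 arrays, at 3506 and 3277 with quinine and 3901 and 4764 in controls. Which part of HIS3 it reads is not stated, so it does not check the strain. Ethanol, at 0.7% by volume, was the solvent of the quinine, and the sources used here do not say whether control cells received it. Cultures grew exponentially in MM4 medium before the exposure. The labels number the arrays 1 and 2 in each group and do not say whether these were separate cultures, so the spread behind each p-value is that of the samples alone and may be technical. The a-cell receptor gene STE2 had signals of 4076 and 3636 with quinine and 4282 and 4316 in controls. All 5 a-cell genes listed lay between 1810 and 15076. The alpha-cell receptor gene STE3 had 45.2 and 33.0 with quinine and 47.6 and 27.4 in controls. Of 4 alpha-cell genes listed, 3 were tested, and the others lay above STE3. SAG1 had 653 and 656 with quinine and 527 and 600 in controls. MF(ALPHA)2 had 164 and 136 with quinine and 162 and 148 in controls. The mating type was not tested by these values. Signals came from whole cultures, where fewer cells that express a gene and less RNA per cell cannot be told apart.

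The yeast wall is a mesh of beta-glucan chains with some chitin, covered by glycosylated mannoproteins. Sensors of the WSC family and of the MID2 family span the plasma membrane and report wall stress to the exchange factor Rom2, which loads the GTPase Rho1. Rho1 activates both the glucan synthase and the kinase Pkc1, and Pkc1 starts a kinase cascade of Bck1, Mkk1 and Mkk2, and Slt2. Slt2 activates the transcription factors Rlm1 and, with Swi6, Swi4, which raise the transcription of wall genes.

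Among the 38 genes, a few had higher signals with quinine, and 21 lay within 0.15 of control on the log2 scale. The highest log2 fold changes were those of PRM5 at 0.83, MTL1 at 0.82, GSC2 at 0.73 and CHS2 at 0.70, and those of CWP1 and MID2 were 0.54 and 0.53. These 6 were the members beyond 0.5 in size. By limma, with p-values adjusted over all 5151 genes, 0 of the 38 passed an adjusted p of 0.05, beside 0.0582% of all genes. The members' adjusted p-values lay between 0.119 and 0.989. At an unadjusted p under 0.05 by limma, 3 members, or 7.89%, were higher (PRM5, CHS2 and GSC2), near the 6.41% of all genes. In the other direction, 0 were lower, beside 12.0% of all genes.

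The 38 members leaned upward. In all, 28 had a log2 fold change above 0, or 73.7%, beside 46.8% of all genes, and their median was 0.08, beside -0.02 over all genes. That share was 55.3%, beside 39.9% of all genes, without quinine replicate 1, and 57.9%, beside 43.6%, without control replicate 2. It was 84.2%, beside 53.6%, without quinine replicate 2, and 73.7%, beside 47.4%, without control replicate 1. Both quinine arrays lay above both control arrays in 10 members, or 26.3%, beside 19.8% of all genes. Both lay below in 3 members, or 7.89%, beside 29.8% of all genes. The difference between groups was larger than that between the arrays of either group in 5 of the 38 members that were higher (MID2, GSC2, CHS2, GFA1 and PRM5). That is a slightly smaller share than the 14.9% of all genes. Such a difference was also seen in 1 of the 38 that was lower, GAS3, a smaller share than the 23.1% of all genes. By group the medians were 0.06 for signalling, 0.05 for glucan, 0.04 for chitin and 0.22 for mannoprotein genes, beside -0.02 over all genes. When 1 array was left out, the medians ran from 0.03 to 0.16 for signalling, from -0.07 to 0.15 for glucan, from -0.05 to 0.15 for chitin and from 0.03 to 0.47 for mannoprotein genes. The glucan median turned without control replicate 2 and without quinine replicate 1, and the chitin median without quinine replicate 1. With 2 arrays in each group, an exact permutation test of a single value cannot give a two-sided p under 0.333, so none is given.

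**Figure D1:**
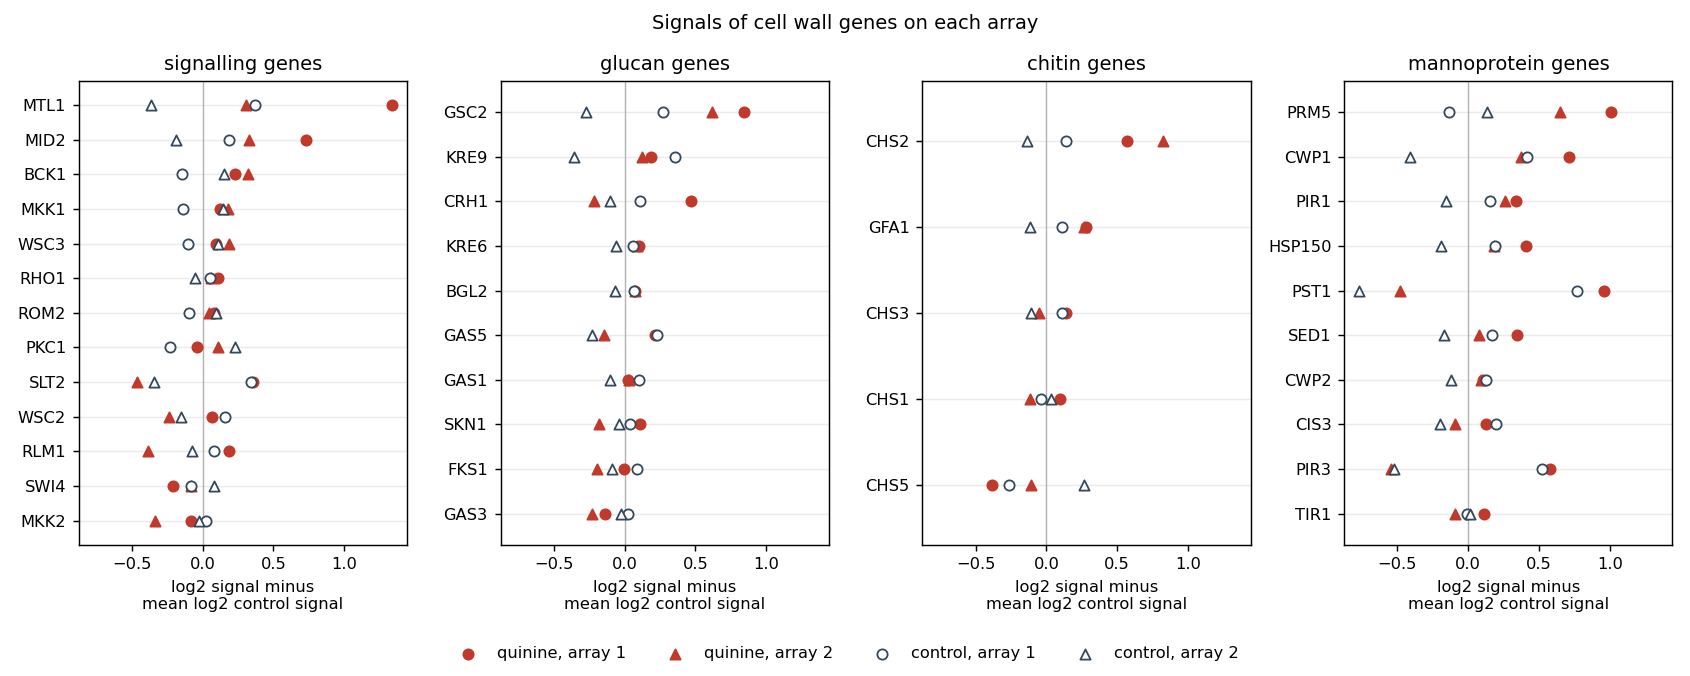
Log2 signal of each of the 38 genes on each array, minus the mean log2 signal of the 2 control arrays, in 4 panels by function; filled red marks are quinine arrays, open marks control arrays, circles array 1 and triangles array 2. MID2, GSC2, CHS2 and PRM5 have both quinine arrays right of both control arrays, while PST1, PIR3 and SLT2 split by array number.

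**Figure D2:**
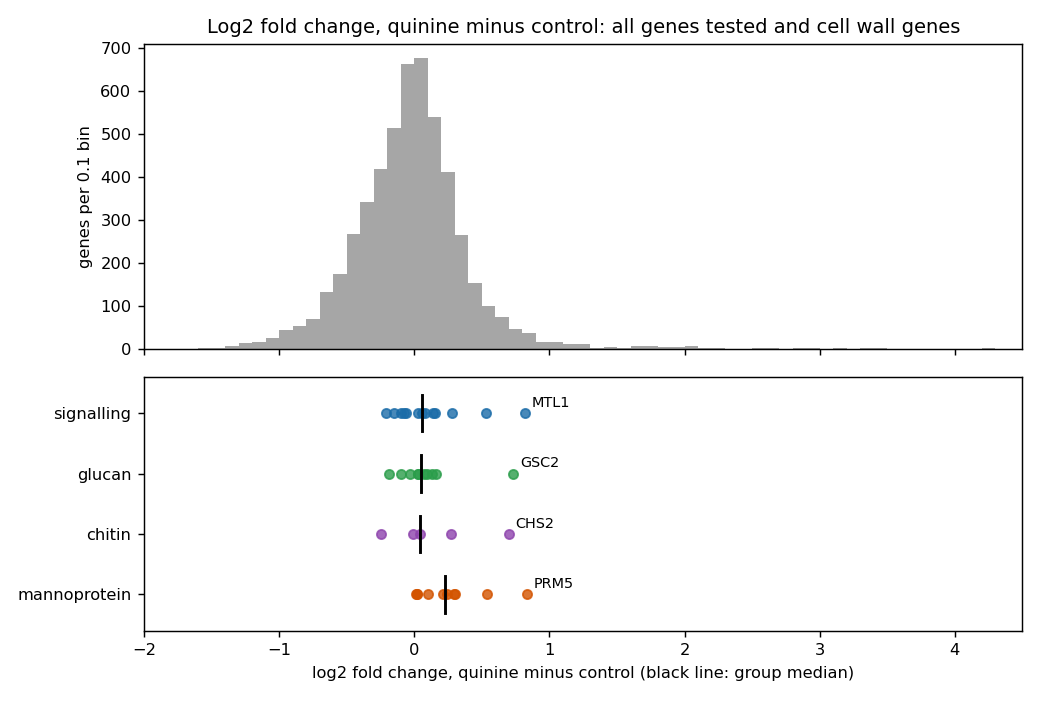
Log2 fold change, quinine minus control, as a histogram over all 5151 genes tested (top) and for each cell wall gene by function (bottom), with the group median as a black line. The group medians, 0.04 to 0.22, lie near the middle of the histogram, and each group has 1 labelled gene, between 0.70 and 0.83, beyond the 95th percentile of all genes at 0.61.

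Among the sensors of the integrity pathway, those of the MID2 family had the higher log2 fold changes. MID2, a heavily O-mannosylated sensor of the plasma membrane, had signals of 2189 and 1653 with quinine and 1498 and 1158 in controls. Both quinine arrays lay above both control arrays, and the mean signal was 1921 ± 379 with quinine and 1328 ± 240 in controls (SD, n = 2 each). For MID2 the log2 fold change was 0.53 ± 0.22 (SE), with a 95% interval from -0.02 to 1.08, and its adjusted p by limma was 0.285. It was lowest, at 0.33, without quinine replicate 1 and highest, at 0.73, without quinine replicate 2. The dubious reading frame JIP3, which the deposited text places almost wholly over MID2, had its own probe set at 26.8 and 32.4 with quinine and 23.4 and 31.7 in controls, and was called Present on 1 of the 4 arrays.

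MTL1, the paralog of MID2 with a like sensor role, had signals of 433 and 212 with quinine and 221 and 133 in controls. One quinine array was high and the other lay just below control array 1, so the groups overlapped. The log2 fold change of MTL1 was 0.82 ± 0.40 (SE), with an adjusted p of 0.342 by limma, and leaving out quinine replicate 1 or quinine replicate 2 gave 0.31 or 1.34. The WSC family members WSC3 and WSC2 lay nearer to control. WSC3 had signals of 799 and 851 with quinine and 696 and 805 in controls, and WSC2 had 3267 and 2648 with quinine and 3471 and 2802 in controls. Both overlapped between groups, with log2 fold changes of 0.14 and -0.08, and WSC2 was at 0.07 without quinine replicate 2. Outside the members, WSC1 was at -0.10 with overlap. WSC4 was lower with no overlap, at -0.37, with 145 and 164 with quinine and 184 and 216 in controls.

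Genes of the relay from membrane to nucleus had signals close to control. The GTPase gene RHO1 had 5534 and 5343 with quinine and 5322 and 4942 in controls, with no overlap but a log2 fold change of only 0.08 ± 0.11 (SE). Its exchange factor gene ROM2 was at 0.06, and the kinase gene PKC1, with signals of 254 and 281 with quinine and 223 and 306 in controls, at 0.03 with a 95% interval from -0.48 to 0.54. BCK1, the first kinase of the cascade below Pkc1, had signals of 355 and 378 with quinine and 273 and 335 in controls. The quinine arrays of BCK1 were above those of controls, by a log2 fold change of 0.28 ± 0.18 (SE), which is less than the log2 difference of -0.30 between its 2 control arrays in size. Leaving out control replicate 1 gave 0.13.

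The paralogous kinases of the next step pointed apart. MKK1 had a log2 fold change of 0.15 with overlap, and MKK2 one of -0.21, with signals of 169 and 142 with quinine and 182 and 176 in controls, which did not overlap. Their adjusted p-values by limma were 0.707 and 0.593. The log2 ratio of MKK2 to MKK1 on each array, set to the mean of the control arrays, was -0.20 and -0.52 with quinine and 0.16 and -0.16 in controls, and whether the genes differ in response was not tested.

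SLT2, the kinase at the end of the cascade and itself a known target of the pathway, had signals of 1297 and 734 with quinine and 1285 and 801 in controls. Arrays numbered 1 were high and arrays numbered 2 low in both groups. The log2 fold change of SLT2 was -0.06, with a 95% interval from -0.92 to 0.80, and ran from -0.47 to 0.35 when 1 array was left out. RLM1, the main transcription factor below Slt2, was at -0.10 ± 0.23 (SE), with overlap, and SWI4, a subunit of the factor that opens the cell cycle, had signals of 64.3 and 70.5 with quinine and 70.5 and 78.7 in controls. The SWI4 groups met without crossing, and its log2 fold change was -0.15 ± 0.20 (SE). Over the signalling genes 0 of 13 passed, with adjusted p-values from 0.285 to 0.956 by limma.

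The clearest glucan gene was GSC2, also called FKS2, which encodes the alternate catalytic subunit of the beta-glucan synthase. It is known for its role in the spore wall and for transcription that follows stress, calcium signalling and poor carbon supply. Its gene probe set had signals of 5804 and 4966 with quinine and 3900 and 2680 in controls. Both quinine arrays were above both control arrays, with means of 5385 ± 592 with quinine and 3290 ± 863 in controls (SD, n = 2 each). The fold was 1.66, a log2 fold change of 0.73 ± 0.21 (SE) with a 95% interval from 0.22 to 1.25. Leaving out 1 array gave log2 fold changes from 0.46, without control replicate 2, to 1.00, without control replicate 1. The adjusted p of GSC2 by limma was 0.163, and the only alternative leaving out 1 array that took it past the threshold was that without control replicate 1, with 0.0358.

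FKS1, the catalytic subunit that serves growing cells, had signals of 9096 and 7992 with quinine and 9693 and 8608 in controls. The groups overlapped, and its log2 fold change was -0.10, with a 95% interval from -0.38 to 0.18. The log2 ratio of GSC2 to FKS1 on each array, set to the mean of the control arrays, was 0.85 and 0.81 with quinine and 0.19 and -0.19 in controls. The synthase genes thus differed in log2 fold change by 0.83, the widest gap among the 9 paralog pairs compared, with no overlap of arrays. That difference was not tested.

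Segments of both genes were measured apart from the gene probe sets. In GSC2, all 8 probe sets had a log2 fold change above 0, between 0.73 and 1.37, and 5 of the 8 had no overlap between groups. In FKS1, 0 of 8 were above 0, and the values lay between -0.26 and -0.10. The 8 probe sets of a gene read the same RNA and are not replicates. Adjusted p-values lay between 0.215 and 0.643 for GSC2 and between 0.631 and 0.979 for FKS1 in a limma fit with every probe set as a row, which was chosen after seeing the data. Most of the segments carry the array's mark for probes shared with other sequences, and whether RNA of one synthase gene adds to the segment signal of the other was not tested.

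The segments also set the arrays apart by number. FKS1 segment 1 had 92.8 and 531 with quinine and 159 and 447 in controls, a log2 difference of array 1 minus array 2 of -2.52 with quinine and -1.49 in controls. FKS1 segment 6, at the other end of the numbering, had 5682 and 5862 with quinine and 6450 and 6311 in controls, with differences of -0.05 with quinine and 0.03 in controls. GSC2 segment 1 had 492 and 2030 with quinine and 319 and 747 in controls, and GSC2 segment 5 had 3691 and 4479 with quinine and 2626 and 2220 in controls. In both genes array 1 fell furthest below array 2 at low segment numbers. One of the 2 probe sets of GSC2 segment 0 was an exception, with differences of -0.44 with quinine and 0.29 in controls. Over the 41 genes with at least 4 numbered segments, the first segment had the lower ratio of array 1 to array 2 in 30 with quinine and in 27 in controls. The places of the segments within each gene are not given in the sources used here, and the part of this difference in the signals of the gene probe sets was not tested.

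**Figure D3:**
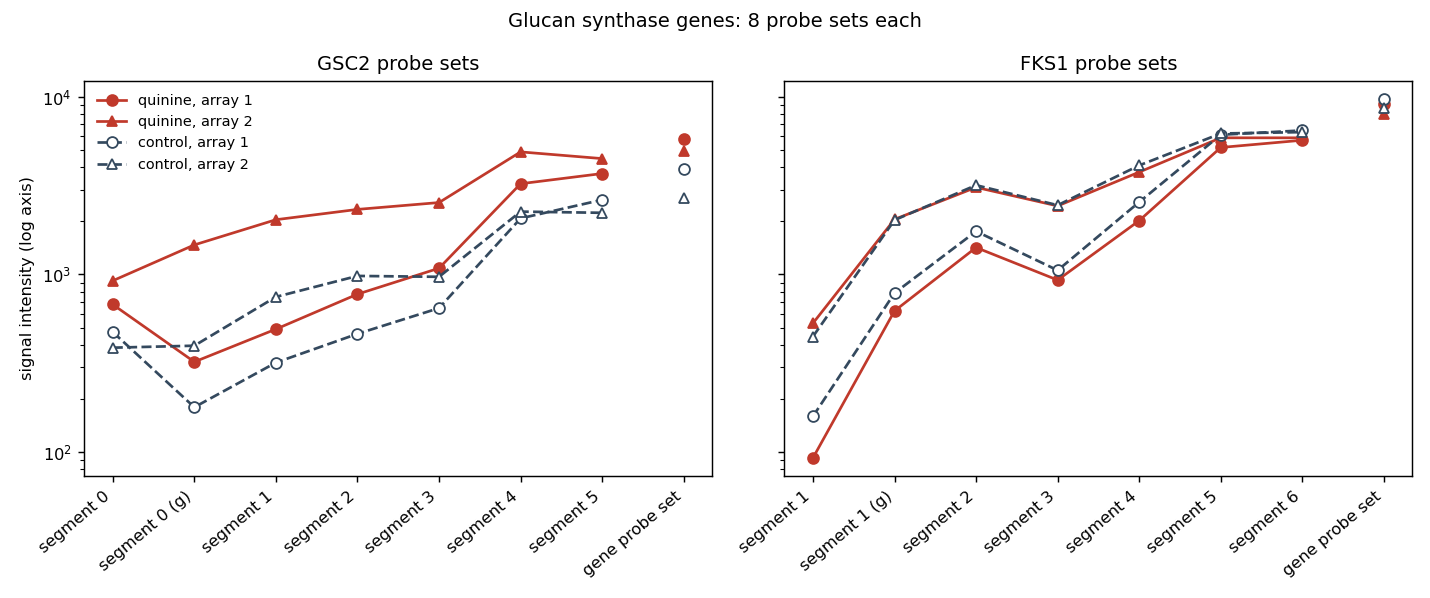
Signal intensity (log axis) of the 8 probe sets named for GSC2 (left) and for FKS1 (right) on each array, with chromosome segments in the order of their numbers and the gene probe set at the far right; segments marked (g) are a second probe set of that segment. Within each array number the quinine line of GSC2 lies above the control line at every probe set, while the quinine lines of FKS1 lie at or below those of controls except at segment 1, and array 1 falls below array 2 at most low segment numbers.

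The other glucan genes had small differences. KRE6 and SKN1, paralogs needed for the branching type of beta-glucan, had log2 fold changes of 0.09 and -0.03, and KRE9, a surface glycoprotein of the same process, had signals of 4199 and 4015 with quinine and 4705 and 2880 in controls. Control array 2 was the low one for KRE9, and the log2 fold change was 0.16, or -0.20 without control replicate 2. BGL2, an abundant glucanase of the wall, was at 0.07, with signals of 6986 and 6974 with quinine and 6945 and 6337 in controls. GAS1, which elongates glucan chains, had signals of 13326 and 13371 with quinine and 14039 and 12198 in controls, a log2 fold change of 0.03 with a 95% interval from -0.19 to 0.25.

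GAS3, of the same family as GAS1, had signals of 2602 and 2443 with quinine and 2919 and 2814 in controls. Both quinine arrays were below both control arrays, and the log2 fold change of -0.19 ± 0.14 (SE) was larger than the gap between arrays within either group, with an adjusted p of 0.552 by limma. GAS5 was at 0.03 with overlap, and the ratio of GAS5 to GAS3 also overlapped between groups. CRH1, which joins chitin to glucan and is a known target of the pathway, had signals of 4954 and 3088 with quinine and 3855 and 3328 in controls, and its single high value was quinine array 1. Its log2 fold change was 0.13, and -0.21 without quinine replicate 1. Among glucan genes 0 of 10 passed, with adjusted p-values from 0.163 to 0.950 by limma.

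Among chitin genes, CHS2 stood above control. It encodes the chitin synthase of the primary septum, and its transcript is known to peak before cell division. Its signals were 859 and 1021 with quinine and 635 and 526 in controls, with no overlap, and the means were 940 ± 114 with quinine and 580 ± 77.5 in controls (SD, n = 2 each). The log2 fold change was 0.70 ± 0.19 (SE), with a 95% interval from 0.23 to 1.17 and an adjusted p of 0.15 by limma. It stayed between 0.56 and 0.83 when any 1 array was left out.

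The synthases of other chitin pools lay close to control. CHS3, which makes most of the wall's chitin, had signals of 3024 and 2652 with quinine and 2970 and 2551 in controls, a log2 fold change of 0.04 with a 95% interval from -0.36 to 0.44. CHS1, which repairs the septum, was at -0.01, and at 0.01 after median centring. CHS5, part of the coat that carries Chs3 to the membrane, had signals of 400 and 485 with quinine and 435 and 629 in controls, with overlap, and was at -0.25 ± 0.23 (SE). GFA1, the first enzyme towards the chitin precursor, had signals of 2833 and 2802 with quinine and 2521 and 2156 in controls. The quinine arrays of GFA1 were close together and above both controls, by a log2 fold change of 0.27 ± 0.16 (SE) with an adjusted p of 0.413 by limma, and by 0.16 without control replicate 2.

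All 10 genes of mannoproteins and surface proteins had a log2 fold change above 0, from 0.01 to 0.83, beside 46.8% of all genes. Of the 10, 8 overlapped between groups. Without quinine replicate 1, and also without control replicate 2, only 6 of the 10 were above 0. Without quinine replicate 2 all 10 were above 0, and without control replicate 1, 9 were. The lean was not particular to this group. Among other mannoprotein and surface genes 18 of 22, or 81.8%, were above 0, with a median of 0.14. Among general stress genes 13 of 15, or 86.7%, were above 0, with a median of 0.25. PRM5, a membrane protein known to be induced by pheromone and by the integrity pathway through Rlm1, had signals of 4593 and 3566 with quinine and 2081 and 2500 in controls. Both quinine arrays were well above both controls, with means of 4080 ± 726 with quinine and 2291 ± 296 in controls (SD, n = 2 each). Its log2 fold change of 0.83 ± 0.19 (SE) was a fold of 1.77, with a 95% interval from 0.36 to 1.29, and the adjusted p of 0.119 by limma was the lowest of the 38. It ranked 133 from the top among the 5151 genes by log2 fold change. When 1 array was left out the value lay between 0.64 and 1.01.

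Genes of the PIR family, whose products are tied to glucan through internal repeats, lie as neighbouring pairs, PIR1 beside PIR3 and HSP150 beside CIS3. PIR1 had signals of 7875 and 7437 with quinine and 6933 and 5588 in controls, with no overlap, a log2 fold change of 0.30 ± 0.13 (SE) and an adjusted p of 0.310 by limma, and it was at 0.14 without control replicate 2. PIR3 had 791 and 364 with quinine and 762 and 369 in controls, so that it split by array number and was at 0.02. HSP150 had 10680 and 9114 with quinine and 9184 and 7059 in controls. The groups of HSP150 overlapped by a narrow margin, at 0.29 ± 0.15 (SE), or 0.10 without control replicate 2, and CIS3 was at 0.02. The log2 ratio of CIS3 to HSP150, set to the mean of the control arrays, was -0.28 and -0.27 with quinine and 0.01 and -0.01 in controls. These genes resemble each other, and whether their probes share signal was not tested.

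CWP1 and CWP2 are a neighbouring pair of genes for mannoproteins anchored to glucan. CWP1 had signals of 3967 and 3138 with quinine and 3227 and 1816 in controls, and control array 2 was the low one. The log2 fold change of CWP1 was 0.54, but 0.96 or 0.13 when control replicate 1 or control replicate 2 was left out, with an adjusted p of 0.388 by limma over all 4 arrays. CWP2 was at 0.10, with signals of 16718 and 16582 with quinine and 16961 and 14276 in controls. The log2 ratio of CWP2 to CWP1 overlapped between groups, and its difference was not tested. SED1, an abundant stress-linked mannoprotein, was at 0.21, or 0.04 without control replicate 2, and TIR1, known for cold shock and growth without oxygen, at 0.01, both with overlap. For the mannoprotein group 0 of 10 passed, with adjusted p-values from 0.119 to 0.989 by limma.

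PST1, a surface protein gene that is a standard reporter of Rlm1, showed the array numbers most plainly. It had signals of 2650 and 976 with quinine and 2328 and 801 in controls. The arrays numbered 1 were the high ones in both groups, by 1.44 and 1.54 on the log2 scale, while the log2 fold change was 0.24 ± 0.63 (SE). PST1, PIR3, SLT2 and MTL1 were the members with array 1 above array 2 by more than 0.5 in both groups. In 17 members, or 44.7%, both arrays numbered 1 lay above both arrays numbered 2, beside 26.2% of all genes, and in 4 members, or 10.5%, the reverse held, beside 11.7% of all genes.

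General stress genes of the Msn2 and Msn4 type moved with the array numbers too. In 11 of 15 such genes, or 73.3%, both arrays numbered 1 lay above both arrays numbered 2, beside 26.2% of all genes. Their median difference between arrays was 0.71 with quinine and 0.90 in controls. The summed signal of the 15 was 36784 and 27750 with quinine and 33610 and 19823 in controls. Of the same list the glycogen synthase gene GSY2 was at 0.99, with an adjusted p of 0.197 by limma, the trehalose gene TPS2 at 0.60, and the chaperone gene SSA4 and the stress gene DDR48 at 0.11 and -0.31. HSP12, named after its values were seen, had signals of 2153 and 413 with quinine and 1730 and 425 in controls. The part of this difference between arrays in the values of the wall genes was not tested.

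**Figure D4:**
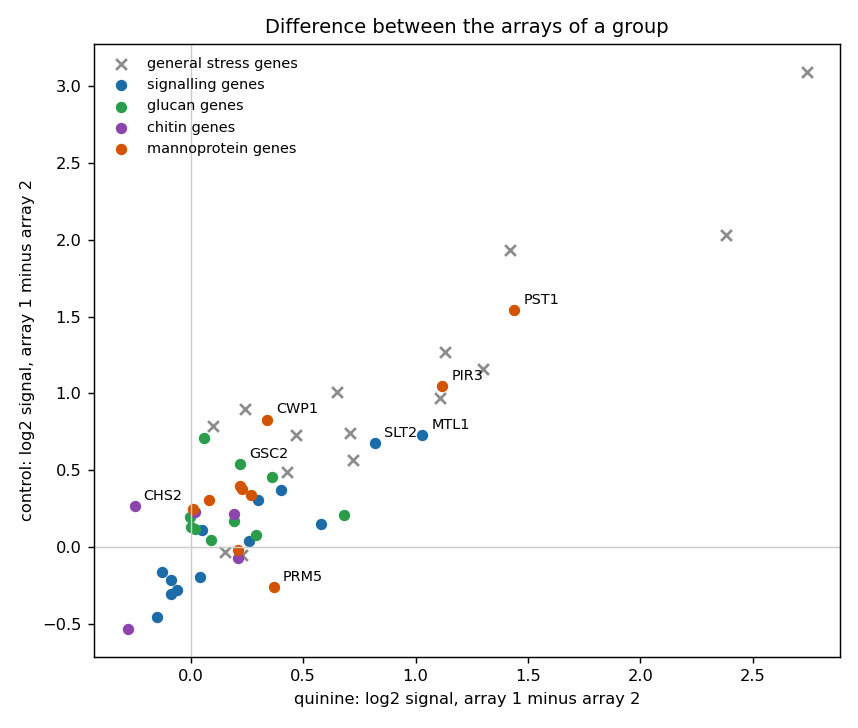
Log2 signal of array 1 minus array 2 with quinine (horizontal) and in controls (vertical) for the 38 cell wall genes, coloured by function, and for 15 general stress genes (grey crosses). PST1, PIR3, SLT2 and MTL1 lie far along the diagonal with many stress genes, while PRM5 and CHS2 lie off it.

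Genes known as targets of the integrity pathway were also read as a list of 12, of which 9 are members. Of these 12, 9 had a log2 fold change above 0, or 75%, beside 46.8% of all genes. The median was 0.17, and 0 passed over all genes. At an unadjusted p under 0.05 by limma, 1 was higher, PRM5, or 8.33%, near the 6.41% of all genes. In the other direction 0 were lower, beside 12.0% of all genes. In 10 of the 12, or 83.3%, the arrays numbered 1 lay above those numbered 2, beside 26.2% of all genes. Outside the members, KDX1, a kinase-like gene, was at -0.11, the protease gene YPS1 at 0.28 and the mannoprotein gene NCW2 at -0.57, all with overlap between groups.

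Among other genes of the wall and the pathway, 68 of 74 listed were tested, and 0 passed over all genes. Their median was 0.04, with 43 above 0, or 63.2%, beside 46.8% of all genes, and 25 below. At an unadjusted p under 0.05 by limma there were 2 higher and 2 lower. Each is 2.94%, beside 6.41% of all genes higher and 12.0% lower. Of the other signalling genes, SMI1, a regulator of glucan synthesis that binds Slt2, had signals of 434 and 384 with quinine and 634 and 616 in controls. That is a log2 fold change of -0.61 ± 0.16 (SE) with an adjusted p of 0.147 by limma, and both quinine arrays were far below control. PKH1, a kinase that acts on Pkc1, had 429 and 385 with quinine and 284 and 273 in controls, a log2 fold change of 0.55. PTP3 and PTP2, phosphatases that act on Slt2 and related kinases, were at 0.54 and 0.50. SMI1, PKH1, PTP3 and PTP2 were named by a rule that asks for no overlap between groups. Of the 19 tested genes of their list, 11 overlapped.

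UTR2, a homolog of CRH1 with the same kind of activity, was lower among other glucan genes, with 4790 and 4430 with quinine and 5802 and 5701 in controls. Its log2 fold change was -0.32 ± 0.11 (SE), with an adjusted p of 0.233 by limma, and BIG1, needed for glucan synthesis in the endoplasmic reticulum, was at 0.40. ROT2, a glucosidase of the endoplasmic reticulum, and SCW11, a glucanase-like wall protein, were at 0.26 and 0.23. Among other chitin genes, the putative chitinase gene CTS2 was at 0.36, and CHS6 and BCH1, which encode parts of the coat that carries Chs3, at 0.32 and 0.25. QRI1, which makes the chitin precursor, was at -0.24.

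PUN1, a plasma membrane protein gene linked to nitrogen stress, had the smallest unadjusted p among other surface genes, with 11549 and 10314 with quinine and 9077 and 5829 in controls. Its log2 fold change was 0.59 ± 0.21 (SE), with an adjusted p of 0.233 by limma. The flocculin gene FLO11, the daughter-cell gene DSE2 and the mannoprotein gene TIP1 were at 0.37, 0.20 and -0.11. PUN1, FLO11, DSE2 and TIP1 were named by a rule that asks for no overlap between groups. In their list both quinine arrays lay above both control arrays in 4 of 22, or 18.2%, beside 19.8% of all genes. Both lay below in 2, or 9.09%, beside 29.8% of all genes.

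GSC2 is also known as a target of calcineurin and its factor Crz1, and the 7 tested genes of that list pointed both ways. PHO89, a sodium and phosphate cotransporter, had signals of 9309 and 8063 with quinine and 1550 and 478 in controls. Its log2 fold change was 3.33, with an adjusted p of 0.0744 by limma. CRZ1 itself was lower with no overlap, at -0.60, with 591 and 407 with quinine and 808 and 687 in controls. PMC1 and RCN1, at 0.24 and -0.65, overlapped between groups. PMR1, a Golgi calcium pump, was at 0.37, while CMK2, a calmodulin-dependent kinase gene, had 2555 and 1805 with quinine and 3241 and 4302 in controls, at -0.80. In all, 4 of the 7 were above 0, or 57.1%, beside 46.8% of all genes, and 3 were below. Over all genes 0 of the 7 passed.

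The authors' deposited table gives its own call for each probe set, as a mark. All 777 marked probe sets had a fold with a lower bound of at least 1.2 in size, and whether this alone was the authors' rule was not checked. Among the 38 gene probe sets, the authors' deposited table marked 3, PRM5, CHS2 and GSC2, or 7.89%, all as higher, beside 4.39% of all genes marked higher and 8.25% marked lower. The fold of PRM5 in the authors' deposited table was 1.78, with bounds of 1.35 and 2.29. For CHS2 the authors' deposited table gave 1.62, with bounds of 1.3 and 2.02. GSC2 stood in the authors' deposited table at 1.64, with bounds of 1.2 and 2.42, and no marked probe set had a smaller lower bound in size.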

How the data were processed

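Total RNA (8 ug) was labelled as biotinylated cRNA, per the labels' protocols. The deposited values are linear signal intensities per probe set and array, and MAS5 is listed, per the submitters' processing notes, without a role or version. How the arrays were scaled is not stated in the labels, and the array medians lay between 596.4 and 635.8. The authors' deposited table adds group means, their standard errors and a fold with bounds (read here as scores, since falls are written as negative values), and, for each group, the percent of Present calls.

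Of the probe sets, 5324 matched 1 gene of assembly R64 by open reading frame and 10 by gene text. The other 2185 were left out of the gene test. A gene entered the test by its brightest probe set, if that was called Present on 2 or more arrays. The log2 signals, with no pseudocount, were compared in limma 3.58.1 under R 4.3.3 (variance trend, 2 residual and 3.87 prior degrees of freedom, Benjamini-Hochberg adjustment over all genes). A trial of this fit on simulated data with planted changes let the arrays vary independently. It thus does not check the calls where arrays of the same number vary together. Folds are ratios of geometric means. The number of arrays limits the precision.

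Members, lists and tests were chosen with earlier results of these data known. Named genes are all members and, from each other list, up to 4 with the smallest unadjusted p and no overlap between groups. Outside this rule, KDX1, YPS1 and NCW2 are named as the pathway targets that are no members, and JIP3 for its overlap with MID2. The genes STE2, STE3, SAG1, MF(ALPHA)2 and HIS3 are named as strain markers, and HSP12 after its values were seen. WSC1 and WSC4 are named as other sensors of the WSC family, and CRZ1, PMC1 and RCN1 as the rest of the 7 tested calcineurin targets.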

Additional observations from a re-analysis of the deposited data

How the results depend on the processing

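The tally of genes past an adjusted p of 0.05 by limma was 3 of 5151. With every probe set as a row, an alternative chosen after seeing the data, it was 0, as it was with no variance trend, with median centring and with quantile normalization. It was 1 with the mean of all probe sets of a gene, and between 0 and 131 when 1 array was left out, 131 being without control replicate 1 and 31 without control replicate 2. Of the 38 members, 0 passed, and between 0 and 1 when 1 array was left out (GSC2, adjusted p 0.0358, without control replicate 1). Members with an unadjusted p under 0.05 numbered 3, and between 2 and 11 when 1 array was left out, 11 (28.9%, beside 19.0% of all genes) being without control replicate 1 and 2 (5.26%, beside 12.6%) without quinine replicate 1 or control replicate 2. Members without overlap numbered 10 higher and 3 lower, and with 1 array fewer, which makes overlap rarer, between 12 (31.6%, beside 25.7% of all genes) and 23 (60.5%, beside 39.8%) higher and between 4 (10.5%, beside 35.5%) and 12 (31.6%, beside 46.9%) lower. Group medians then ran from 0.03 to 0.16 (signalling), -0.07 to 0.15 (glucan), -0.05 to 0.15 (chitin) and 0.03 to 0.47 (mannoprotein).

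The replicate number as a block left 1 residual degree of freedom and gave 1464 genes, or 28.4%, and 9 members, or 23.7%, past an adjusted p of 0.05 by limma (MID2, MTL1, GSC2, CHS2, PIR1, HSP150, CWP1, SED1 and PRM5, all higher), and 10 members, or 26.3%, beside 37.6% of all genes, with an unadjusted p under 0.05. The difference of array 1 minus array 2 correlated between groups at 0.62 across 5151 genes, which are not independent replicates. The labels do not say that a number marks a shared culture or day, and there are only 2 such pairs, so the block was not used for the results.

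Of the 38 members, 20 kept the sign of their log2 fold change under all 12 alternatives, and 18 turned under some. Much of this was fixed in advance. The variance trend, the replicate block, the Present filters and the mean of probe sets leave a member's value as it was and cannot turn it. Leaving out 1 array cannot turn the 10 members higher and 3 lower without overlap. The count of 20 is thus no measure of robustness. CHS1 was 0.01 after median centring. When 1 array was left out the values ran from -0.24 to 0.07 for WSC2, -0.04 to 0.16 for ROM2, -0.20 to 0.26 for PKC1, -0.47 to 0.35 for SLT2, -0.39 to 0.19 for RLM1, -0.20 to 0.51 for KRE9, -0.18 to 0.11 for SKN1, -0.07 to 0.13 for GAS1, -0.19 to 0.26 for GAS5, -0.21 to 0.47 for CRH1, -0.12 to 0.09 for CHS1, -0.07 to 0.15 for CHS3, -0.51 to 0.02 for CHS5, -0.54 to 0.58 for PIR3, -0.18 to 0.22 for CIS3, -0.03 to 0.22 for CWP2, -0.53 to 1.00 for PST1 and -0.10 to 0.11 for TIR1. The cause was not tested. All 38 were above background on every array.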
